A study of Homo sapiens with 6 samples.

Results

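Telomerase and shelterin genes were followed through the H3K4me3 promoter peak lists of BE(2)-C, a human neuroblastoma line in long-standing use that carries extra copies of MYCN. H3K4me3, trimethylated lysine 4 of histone H3, sits at active promoters. The members were 9 genes chosen by name, out of 16500 distinct names in the deposited files: TERT, the shelterin genes TERF1, TERF2, POT1, TINF2, ACD and TERF2IP, and the telomere replication genes RTEL1 and CTC1. Each name was looked up in the peak list of either H3K4me3 library and in the promoter tables, which separate N-Myc-binding from non-binding promoters.

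Cells had received WDR5 siRNA-1 or, for comparison, a control siRNA, each for 24 hours. WDR5 belongs to the core shared by the enzymes that methylate H3K4. Every library came from BE(2)-C cells grown in serum-containing medium, and a single siRNA sequence against WDR5 was used. The series holds 6 libraries, of which 2 were H3K4me3, 2 IgG and 2 input, so each siRNA had 1 H3K4me3 library and no replicate. The peak lists give names without any height, read number or depth. A name is therefore either listed or not, and every count below describes these 2 libraries with no replicate error and no test.

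Telomerase adds telomeric repeats to chromosome ends, and TERT is its catalytic reverse transcriptase subunit. Most somatic cells keep TERT silent, while many tumours express it, and MYC-family proteins are known to bind E-boxes in its promoter. Shelterin is the protein complex that coats telomeric repeats, hides chromosome ends from the DNA damage response and controls the access of telomerase. Its subunits are expressed in most cell types.

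The promoter sequences of TERT, POT1 and TINF2 are shown because these genes have both a row in a promoter table and a RefSeq promoter entry. Each runs from 250 bases before to 50 bases after a RefSeq gene start on GRCh38.p14, all on the minus strand, at chr5:1295019-1295318 for TERT, chr7:124929776-124930075 for POT1 and chr14:24242625-24242924 for TINF2. Capitals mark CACGTG, the canonical E-box, and GGGCGG or its reverse complement, the GC box.
TERT: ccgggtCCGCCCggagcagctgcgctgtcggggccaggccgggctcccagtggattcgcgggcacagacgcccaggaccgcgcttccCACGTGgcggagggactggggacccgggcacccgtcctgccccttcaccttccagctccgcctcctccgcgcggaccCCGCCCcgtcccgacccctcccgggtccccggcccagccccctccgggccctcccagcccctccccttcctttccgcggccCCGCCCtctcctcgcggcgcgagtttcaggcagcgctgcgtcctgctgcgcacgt
POT1: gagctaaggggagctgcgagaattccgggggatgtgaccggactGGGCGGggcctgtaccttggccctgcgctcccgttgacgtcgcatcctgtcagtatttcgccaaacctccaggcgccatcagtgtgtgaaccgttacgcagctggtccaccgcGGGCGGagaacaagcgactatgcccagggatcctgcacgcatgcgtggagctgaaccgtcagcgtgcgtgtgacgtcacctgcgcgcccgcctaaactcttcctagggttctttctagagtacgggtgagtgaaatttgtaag
TINF2: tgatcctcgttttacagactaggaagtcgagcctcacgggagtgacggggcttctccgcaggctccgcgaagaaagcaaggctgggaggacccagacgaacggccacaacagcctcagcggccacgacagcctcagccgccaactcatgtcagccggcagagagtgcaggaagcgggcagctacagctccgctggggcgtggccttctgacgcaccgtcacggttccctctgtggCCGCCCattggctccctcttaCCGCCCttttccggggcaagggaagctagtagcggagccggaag

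The first comparison asked which telomere genes carried an H3K4me3 peak within 1 kb of their start after WDR5 siRNA. With WDR5 siRNA 8 of the 9 genes were listed, and with control siRNA all 9 were. TERT was the gene that was missing from the WDR5 siRNA list. All 6 shelterin genes and both replication genes, RTEL1 and CTC1, were listed in both libraries. The single control-only gene made up 11.1% of the 9 (exact 95% interval over genes 0.281 to 48.2%), and 13.5% of all 13618 control names were control-only, so the share among telomere genes was near the background. No telomere gene was listed only with WDR5 siRNA, where 0.817% of all 11870 WDR5 siRNA names stood. Each of the 9 names had 1 row in every list that held it.

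**Figure D1:**
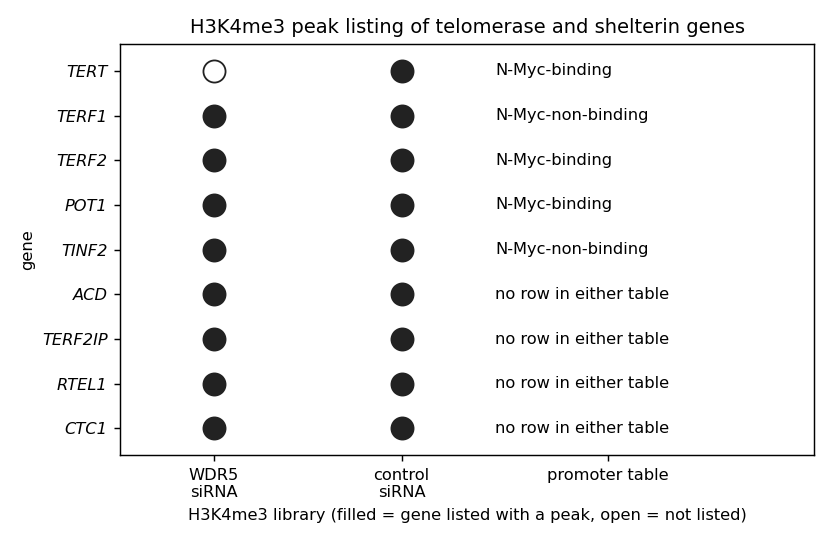
Listing of each gene with an H3K4me3 peak in the WDR5 siRNA library (left circles) and the control siRNA library (right circles), with the promoter table that holds the gene. A filled circle is a listed gene and an open circle an unlisted one. With WDR5 siRNA 8 of 9 circles are filled, and TERT has the only open one.

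TERT was absent from the WDR5 siRNA list and present in the control list. Its start lay at chr5:1295162 on hg19 in the N-Myc-binding table. Among N-Myc-binding promoters with a control name, 4.18% (129 of 3087) were control-only, so TERT belonged to a small minority of that table. Since the depth of either library is unknown, an unlisted promoter may still carry H3K4me3 below the calling threshold.

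The proteins of TERF1 and TERF2 bind double-stranded telomeric repeats. TERF1 was listed with WDR5 siRNA and with control siRNA, and its start at chr8:73921097 was in the non-binding table. TERF2, whose product also shields chromosome ends from fusion, was likewise listed in both libraries, and its start at chr16:69419891 was in the N-Myc-binding table. The pair of double-strand binding genes thus shared their peak listing and differed in promoter table.

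POT1 encodes the shelterin subunit that binds the single-stranded telomeric overhang. It was listed with WDR5 siRNA and with control siRNA, and its start at chr7:124570037 was in the N-Myc-binding table. TINF2, whose product links the double-strand and single-strand binding subunits, was listed in both libraries with a start at chr14:24711880 in the non-binding table. Of the 5 genes with a table row, TERT, TERF2 and POT1 were therefore N-Myc-binding and TERF1 and TINF2 non-binding. Over all promoters, 3254 rows were N-Myc-binding and 6331 non-binding, and 5 genes are too few to compare with that split.

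The remaining 4 genes, ACD, TERF2IP, RTEL1 and CTC1, had no row in either promoter table, so their N-Myc class was not analysed here. ACD encodes the partner of POT1 that recruits telomerase, and TERF2IP encodes RAP1, which binds the TERF2 protein. RTEL1 is a helicase that unwinds telomeric loops, and CTC1 is the large subunit of the CST complex, which works with polymerase alpha-primase to fill in the complementary telomeric strand. All 4 were listed with WDR5 siRNA and with control siRNA. Of the 6856 control names in neither table, 15.5% were control-only.

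The order of rows was then read for the 5 genes in the promoter tables. The headers do not explain this order, and the tables hold no level, so a row is a position and not a measurement. Both tables are titled as H3K4me3 quantification, so their order may come from the same libraries as the peak lists, which was not tested. Row position and listing were not independent, as the median positions below show. In the N-Myc-binding table of 3254 rows, TERF2 held row 2314, TERT row 3018 and POT1 row 3130, at 71.1%, 92.7% and 96.2% of the table length. TERF1 held row 1091 and TINF2 row 2725 of the 6331 rows of the non-binding table, at 17.2% and 43.0%. Among N-Myc-binding promoters the median position was 45.6% for those listed in both libraries, the listing of TERF2 and POT1. It was 90.3% for control-only promoters, the listing of TERT, and 97.0% for those in neither list. In the non-binding table the median for promoters listed in both was 23.9%, later than TERF1 and earlier than TINF2. There it was 51.5% for control-only promoters and 78.4% for those in neither list.

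**Figure D2:**
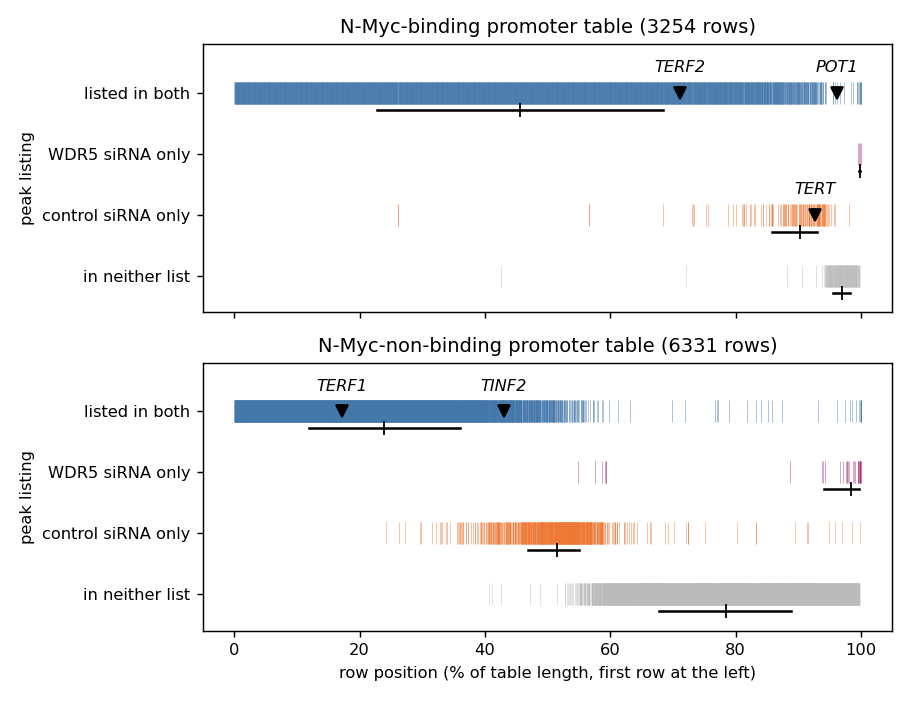
Row position of every promoter in the N-Myc-binding (top) and non-binding (bottom) tables, as a percentage of table length on the x axis, split by peak listing. Coloured ticks are promoters, black lines the central 50% with a bar at the median, and triangles the telomere genes. TERT at 92.7% lies among the control-only promoters, whereas POT1 at 96.2% lies beyond most promoters listed in both.

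TERT lay near where control-only promoters were densest. Its own listing makes such a place likely, because row order and listing were linked, so this is no separate support for that listing. Among the 100 rows nearest to it, 50 on each side, 45 were control-only, 51 listed in both and 4 in neither list. The highest number of control-only promoters in any 101 consecutive rows of the table was 47, with the first such stretch centred on row 3015. TERT's own stretch of 101 rows held 46. The nearest rows were KNTC1, a kinetochore gene, and TNFRSF10A, which encodes a TRAIL receptor, before it, and GTF3C3, a subunit gene of transcription factor IIIC, and ATF6, a stress-response transcription factor, after it. TNFRSF10A shared the control-only listing of TERT, and the other 3 were listed in both. Of the other 128 control-only promoters of this table, 93 came in earlier rows and 35 in later ones.

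POT1 stood in a part of the table where a listing in both libraries was rare. Among the 100 rows nearest to it, 90 were in neither list, 5 were control-only and 5 were listed in both. The rows on either side held NCOA1, CPXM1, TLK1 and SET, and all 4 were in neither list. Of the other 2957 promoters listed in both, 2943 came in earlier rows than POT1 and 14 in later ones. Of the 129 control-only promoters, TERT included, 128 came earlier than POT1. The peak behind a listed name may lie at another start of the same gene, because the lists were joined to the tables by name.

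**Figure D3:**
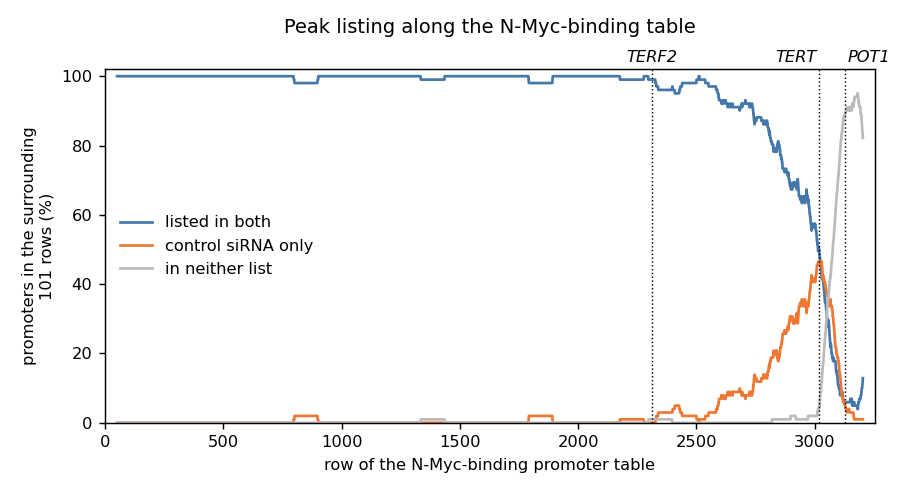
Share of promoters with each peak listing (both libraries, control siRNA only, neither list) in 101 consecutive rows centred on each row of the N-Myc-binding table. The x axis is the row number, the y axis the percentage of promoters, and dotted lines mark telomere genes. The control-only share peaks beside TERT, and the share in neither list is near its top at POT1.

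TERF2 and TERF1 lay among promoters with a peak in both libraries, which is likewise no separate support for their own listing. Of the 100 rows around TERF2, 99 were listed in both and 1 in neither list, with NFYC, RCL1, WWP2 and STAM2 nearest. Around TERF1 all 100 rows were listed in both, with XRCC3, USP25, ARL2BP and YME1L1 nearest, and no control-only promoter of the non-binding table came in an earlier row. TINF2 was intermediate, with 76 of the nearest 100 rows listed in both, 23 control-only and 1 in neither list. Its nearest rows NEUROG2, PLEKHA7, AKR1E2 and CD83 were listed in both. OBFC1, which encodes the CST subunit STN1, lay 5 rows from TINF2 at row 2720 and was control-only. MYC, also control-only, lay 20 rows from TINF2, and DBH, the dopamine beta-hydroxylase gene and control-only as well, lay 4 rows away.

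The genomic surroundings were examined next, because a peak within 1 kb of a start can be shared with a close neighbour. None of the 5 genes with a table row had another table start within 2 kb. The nearest table starts to TERT were SLC6A18, an amino acid transporter family gene 69.7 kb away that was in neither list, and CLPTM1L, 49.8 kb away and listed in both. Within 500 kb of TERT there were 8 other table promoters, of which 5 were listed in both and 3 in neither list, and none was control-only. In the control list, 3554 of 3557 consecutive pairs with table starts on the same chromosome ran in order of position. There TERT interrupted a stretch of names listed in both: 45 such names in a row preceded it and 10 followed it. The count did not stop at chromosome ends, so these names need not all lie on chromosome 5. SLC12A7, a potassium-chloride cotransporter gene, and CLPTM1L were its direct neighbours in that list. Standing alone in this way was common, since 62.3% of 1844 control-only names had direct list neighbours that were both listed in both libraries.

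**Figure D4:**
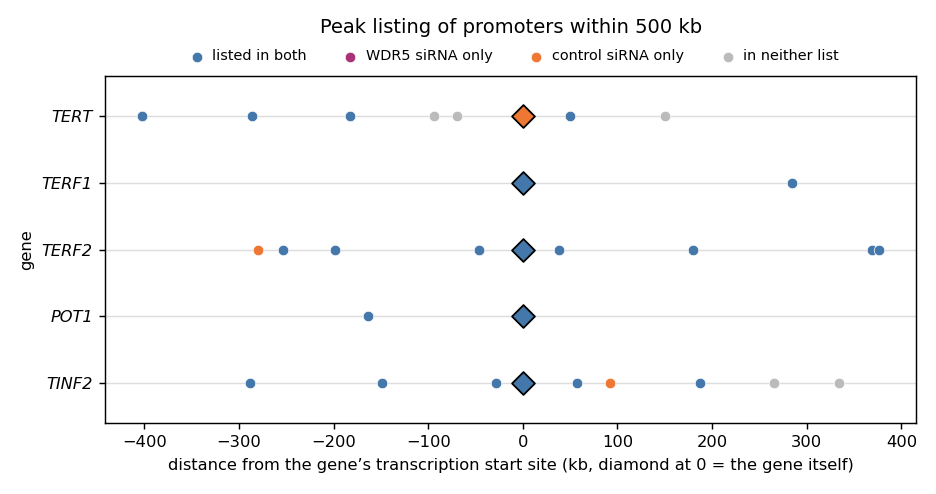
Peak listing of promoters within 500 kb of the 5 telomere genes that have a table row. The x axis is the distance from the gene's own start in kb, diamonds are the telomere genes and circles other table promoters. TERT is control-only with 5 promoters listed in both and 3 in neither list around it.

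TERF1 showed the opposite arrangement, since it was listed in both libraries between KCNB2, a potassium channel gene, and SBSPON, which were both control-only. How common this is among names listed in both was not counted. ACD and RTEL1 each had a control-only name on one side, RLTPR for ACD and TNFRSF6B, a decoy receptor gene, for RTEL1. TERF2 stood between COG8, a Golgi complex gene 46.4 kb away, and CYB5B, a cytochrome gene 38.6 kb away, and both were listed in both libraries. POT1 had BC142949 and ZNF800 beside it in the list, TINF2 had GMPR2 and HP08474, TERF2IP had KARS and MON1B, and CTC1 had LINC00324 and PFAS. All of these were listed in both libraries.

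Some starts were close enough for a shared peak. In the RefSeq annotation the start of TERF2IP lay 108 bases from that of KARS, the lysyl-tRNA synthetase gene, on the opposite strand. The ACD start lay 700 bases from that of PARD6A, a cell polarity gene, also on the opposite strand. KARS and PARD6A were listed in both libraries, so the calls of TERF2IP and ACD cannot be told apart from those of their neighbours. POT1 had an antisense transcript, POT1-AS1, starting 48 bases away, which was in neither list. RTEL1 had the read-through gene RTEL1-TNFRSF6B starting 0 bases away on the same strand, and that name was in neither list. TERT and TINF2 had no other RefSeq promoter entry within 2 kb. TERF1, TERF2 and CTC1 had no RefSeq promoter entry and could not be examined in this way.

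Sequence features were compared over the 6 members with a RefSeq promoter entry. Both strands were searched for CACGTG, for the general E-box CANNTG, of which CACGTG is a special case, and for GGGCGG. The TERT promoter held 1 CACGTG, beginning 163 bases before the RefSeq start, and none of the other 5 members held it. The motif was present in 7.43% of all 27305 promoters of this length, in 15.0% of 2713 N-Myc-binding promoters and in 6.23% of 4975 non-binding ones. Within the N-Myc-binding table it was in 15.1% of promoters listed in both and in 13.6% of the 103 control-only ones with an entry, TERT included. The last 5 bases of the printed TERT window equal the first 5 of CACGTG, and the window ends there.

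POT1, the other N-Myc-binding member with an entry, had no CACGTG and 2 copies of CANNTG, as many as TERT. TINF2 had no E-box of either form. The promoter of TERT held 3 GC boxes, and those of POT1, TINF2 and ACD held 2 each, while TERF2IP held 1 and RTEL1 none. GC boxes occurred in 73.2% of N-Myc-binding promoters, 55.0% of non-binding ones and 44.6% of all promoters. CANNTG occurred in 60.4% of N-Myc-binding promoters, 65.1% of non-binding ones and 68.9% of all promoters. The TERT window was 77.3% G and C, POT1 60.3% and TINF2 64.0%, with a median of 58.3% over all promoters. The RefSeq starts are on another build than the tables, so the windows need not be centred on the tabled starts.

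Other genes of telomere biology were then counted over 7 lists with 97 genes. Of the 87 with a control name, 84 were listed in both libraries and 3 were control-only, or 3.45% (exact 95% interval over genes 0.717 to 9.75%), beside 13.5% of all control names. That background share differed by promoter class: 4.18% for N-Myc-binding promoters, 17.9% for non-binding ones and 15.5% for control names in neither table. The lists were chosen by name, with earlier results of these data known, and not matched to this mix of classes. The interval is therefore no test of a difference from 13.5%. No gene of these lists was listed only with WDR5 siRNA. The control-only genes were OBFC1, SETDB1 and MYC. Of all 13618 control names 11773 were listed in both, so a list below with most or all genes in both is not particular.

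Telomerase needs an RNA template and assembly factors besides TERT. Of 18 genes for telomerase assembly and trafficking, 17 were listed in both libraries, among them DKC1, NOP10, NHP2 and GAR1, the proteins of which bind the telomerase RNA, WRAP53, which guides telomerase to Cajal bodies, and RUVBL2, an assembly ATPase. TERC, the RNA template gene, was in neither list. Of the 5 CST and polymerase alpha-primase genes with a control name, POLA1, POLA2, PRIM1 and PRIM2 were listed in both and OBFC1 was control-only. CTC1, the partner of the OBFC1 product, was listed in both libraries, so the CST complex held both kinds of listing. TEN1 was in neither list.

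All 11 shelterin partner genes with a control name were listed in both libraries, including TNKS and TNKS2, the tankyrases that release TERF1 protein from telomeres, DCLRE1B, a nuclease that acts with TERF2 protein, and RIF1. PINX1, which encodes a telomerase inhibitor, was in neither list. Of 17 end processing and repair genes, 16 were listed in both libraries, such as MRE11A, RAD50, NBN, BLM, WRN and XRCC6, and RPA3 was in neither list. In the list for alternative lengthening of telomeres, a recombination-based pathway that works without telomerase, ATRX and DAXX were listed in both, as were 4 other genes. SETDB1, a histone H3 lysine 9 methyltransferase gene, was control-only and CBX5 was in neither list.

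Regulators of TERT transcription were mostly listed in both libraries, as were 11773 of all 13618 control names. The control-only share of the regulators was 4.76%, near the 4.18% of N-Myc-binding promoters with a control name and below the 13.5% of all control names. The N-Myc-binding table held 13 of the 22 regulators. Of 21 with a control name, 20 were listed in both, among them MYCN, MAX, the partner of MYC-family proteins, MXD1, which opposes them, SP1, which binds GC boxes, GABPA and CTCF. MYC was control-only, at row 2745 of the non-binding table, and ETS1 was in neither list. Of the 14 genes around TERT on chromosome arm 5p, 10 were listed in both, for example TRIP13, BRD9, CLPTM1L and LPCAT1. The remaining 4, SLC6A19, SLC6A18, SLC6A3 and IRX4, were in neither list, so of TERT and these 14 genes only TERT was control-only.

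**Figure D5:**
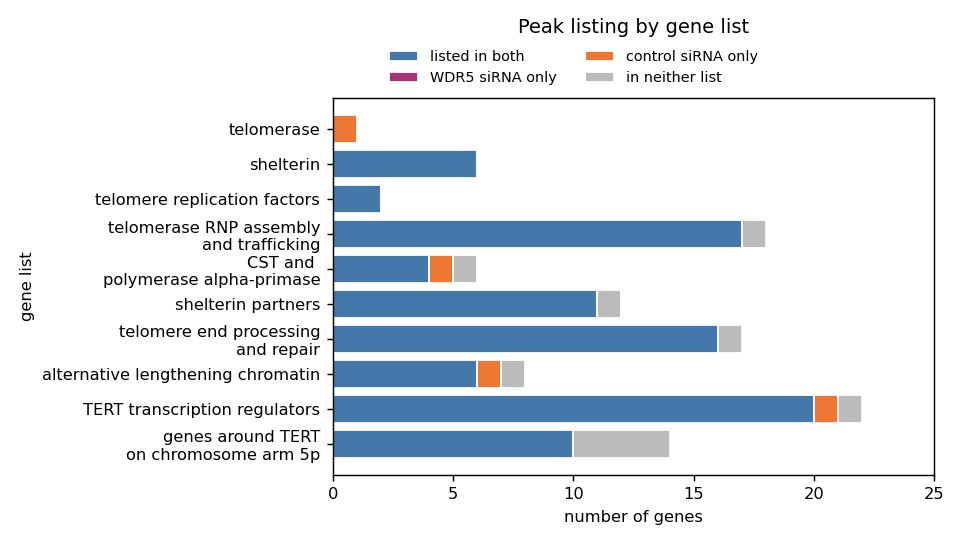
Number of genes (x axis) by peak listing in each telomere gene list (y axis). Colours separate genes listed in both libraries, in WDR5 siRNA only (0 genes), in control siRNA only and in neither list. TERT, OBFC1, SETDB1 and MYC are the control-only genes.

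The sympathetic identity of the cells was checked from the peak lists. With WDR5 siRNA 5 of 7 sympathetic neuroblastoma markers were listed, and with control siRNA all 7 were. PHOX2A, HAND2, GATA3, ISL1 and CHGA were listed in both, and TH and DBH were control-only. The 2 of 7 made up 28.6%, beside 13.5% of all control names and 17.9% of the non-binding promoters with a control name, the table that holds all 7. None of 12 markers of blood, liver, epithelial, endothelial, muscle or glial cells was in either list. The liver markers ALB and APOA1, and also PECAM1 and SOX10, had no promoter row either. These names may not have been annotated, so nothing can be said from them. Depth, immunoprecipitation yield and the number of names per library, 11870 with WDR5 siRNA and 13618 with control siRNA, cannot be told apart from the siRNA with 1 library each.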

How the data were processed

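Names of genes with an H3K4me3 peak within 1 kb of the start, 1 list per H3K4me3 library, were taken as deposited, per the file headers. The authors' 2 other deposited tables give a start interval 1 bp wide and a gene name, with no level. Per the submitters' processing notes, BWA 0.7.12 and bedtools were used and the build was hg19. Peak caller, threshold and the definition of N-Myc binding: not given in the sources used here. IgG and input libraries were not used here.

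Distinct names were classed as listed in both, 1 or neither library, and joined to promoter tables by name. The second coordinate was taken as the 1-based start. Row windows held 50 rows on each side. Of 16500 names, 15689 matched a RefSeq symbol or unambiguous synonym (GRCh38.p14), and 6 of 9 members had a RefSeq promoter (the first entry where a gene had several). Intervals are exact (Clopper-Pearson) at 95%, treat genes as independent and cover neither replicate nor library error. With 1 library per siRNA no test exists. Named genes were the 9 members, genes of the lists listed in only 1 library, direct neighbours by start, list or row, and up to 6 examples per list. DBH, TH and MYC fall under this rule; gene names beyond it were chosen after the listings were seen. The members and lists were chosen with earlier results of these data known. A planned marker is not reported here. The class and motif code was tested on simulated data. Python 3.11.15, pandas 2.3.3, scipy 1.17.1 and matplotlib 3.10.9 were used.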

Additional observations from a re-analysis of the deposited data

How the results depend on the processing

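The count of 1 control-only member stayed at 1 with synonyms and read-through names and with names of a single row. The count was also 1 among members with no other listed start found within 2 kb, and among members with a promoter row. The number listed with WDR5 siRNA was 8 of 9, and 6 of 7 without ACD and TERF2IP, which have a listed neighbour within 2 kb. It was 4 of 5 among members with a promoter row, because fewer genes were counted. The 7 include TERF1, TERF2 and CTC1, which had no RefSeq promoter entry. CTC1 had no row in a promoter table either, so its close neighbours were not checked and it was kept by default. The control-only share around TERT was 45.0% with 50 rows on each side, 46.0% with 25 rows and 33.5% with 100 rows, a window that reaches rows in neither list. The all-name share was 13.5% by rows as deposited and 13.0% for names matched to RefSeq. The share over the 7 lists was 3.64% for genes with a promoter row. Only TERT held CACGTG also in the 250 bases before the start. Alternatives on pseudocounts and low-value filters were not run, because the tables hold no levels. No paired analysis was possible because each siRNA had 1 library, and no replicate could be left out. Depth is unknown, so a name listed in both can differ in level between the libraries.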

Other observations

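Several telomere genes in neither list still had a promoter row. RPA3, a subunit gene of the single-strand binding protein RPA, held row 6272 of the non-binding table, at 99.1% of its length. CBX5, which encodes heterochromatin protein 1 alpha, held row 3078 in the table of binding promoters, at 94.6%, between TERT and POT1. ETS1 was at 76.1% of the non-binding table. A gene in neither list can lack a peak or carry another name in the authors' annotation, and which applies was not tested.

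Genes with a listing in both libraries also reached the late rows of the N-Myc-binding table. PRIM2 stood at 93.9%, XRCC5, the Ku80 gene, at 93.4% and PIF1, a helicase gene, at 91.7%, all close to TERT at 92.7%. At the other end, MYCN held row 1 and XRCC6, the Ku70 gene, row 66.

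The name TPP1 is a synonym of ACD and was control-only in the lists. It is also the current symbol of another gene, tripeptidyl peptidase 1, so it was not counted for ACD, which was listed under its own name in both libraries.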
